A study of Mus musculus with 42 samples.

Results

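The nuclear-coded genes of the mitochondrial respiratory chain were examined in the lungs of newborn mice. The members were all genes whose single symbol in the array annotation begins with Ndufa, Ndufb, Ndufc, Ndufs, Ndufv, Uqcr, Sdh, Cox4, Cox5, Cox6, Cox7 or Cox8. This gave 77 of the 18194 genes tested, measured by 154 probe sets, and each gene was represented by its probe set of highest mean over all arrays. By role they were 34 subunits of complex I, 8 complex I assembly factors, 4 subunits and 4 assembly factors of complex II, 8 subunits of complex III, 11 widely expressed subunits of complex IV and 8 complex IV isoforms known from particular tissues or conditions. The 57 subunits of complexes I to IV, without isoforms and assembly factors, are called core subunits here. All 77 were tested, with no filter on low values.

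The respiratory chain passes electrons from NADH through complex I, and from succinate through complex II, to complex III, cytochrome c, complex IV and finally oxygen. Most of its subunits are coded in the nucleus, and a few of the catalytic ones in mitochondrial DNA. Complex IV is known for subunits that exist in several isoforms: Cox4i2 is the lung form of subunit 4, Cox6a2, Cox7a1 and Cox8b are heart and muscle forms, Cox6b2 is a testis form, and Ndufa4l2 is a relative of Ndufa4 known as a hypoxia-induced gene. Ndufa4, despite its name, is counted with complex IV.

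The study asked how deletion of Nrf2 acts on the lung after birth and in a model of bronchopulmonary dysplasia, the chronic lung disease of preterm infants given oxygen. NRF2, coded by Nfe2l2, is a transcription factor that induces antioxidant genes. Each of 42 arrays held RNA from the homogenized lung of 1 mouse. There were 14 groups of 3 mice: Nrf+/+ (wild type) and Nrf-/- (knockout) mice kept in room air and taken at postnatal day 1 (P1), P2, P3 or P4, and mice of both genotypes exposed from P1 to at least 95% oxygen (hyperoxia) for 23 h a day for 1, 2 or 3 d and so taken at P2, P3 or P4. Pups in air and in oxygen were kept with foster dams, and the labels give neither the sex of the pups nor the genetic background. Values are on the log2 scale, so a difference of 1 is a 2-fold change, and in whole lung fewer cells of a type and less RNA per cell cannot be told apart.

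The knockout was plain in every array. Nfe2l2 was at 10.86 ± 0.28 (SD, n = 21; 10.3 to 11.6) in wild type and at 4.68 ± 0.29 (n = 21; 4.26 to 5.46) in knockout arrays. The lung markers Sftpc and Sftpb (surfactant proteins of alveolar type 2 cells), Scgb1a1 (club cells) and Ager (type 1 cells) were near the top of the scale in all groups. The other lung markers measured were lower, Pecam1 at a median of 11.38 and Nkx2-1 at one of 7.53. Arrays of one group correlated over all genes with r between 0.959 and 0.997.

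The promoters of several members carry the motif of nuclear respiratory factor 1, a regulator of respiratory chain genes that is coded by the gene Nrf1 and is a different protein from NRF2. RefSeq promoter sequences (assembly GRCm38.p6, 250 bases before to 50 after the start) were matched for 63 of the 77 genes, with 65 promoters. This motif (GCGCA, any base, then GCGC), searched on both strands, was in 14 of the 65 (21.5%) and in 4.6% of all 32851 promoters. The ETS motif CCGGAAG, the core of sites of nuclear respiratory factor 2 (GABP, again not NRF2), was in 16 (24.6%) against 8.86% of all. The antioxidant response element TGACNNNGC, the kind of site NRF2 binds, was in 11 (16.9%) against 12.4%, and the hypoxia element ACGTGC in 4 (6.15%) against 5.91%. Letter matches describe the window and show no binding, and these promoters are rich in G and C (median 59% against 52.7%). The stretches below are from genes described here, on the strand of the gene, 5′ to 3′. Sdha, which no leading comparison called, is shown for its motifs alone. Capitals mark the motifs just named. Cox6a1 (chr5:115348959-115349128, minus strand) has 2 nuclear respiratory factor 1 motifs and 1 ETS motif, Sdha (chr13:74350241-74350360, minus strand) has 3 nuclear respiratory factor 1 motifs, and Ndufa5 (chr6:24527637-24527736, minus strand) has 1. Ndufaf4 (chr4:24897933-24898032, plus strand) has an antioxidant response element and then a nuclear respiratory factor 1 motif, and Cox6b2 (chr7:4753095-4753214, minus strand) holds none of the motifs searched.
Cox6a1: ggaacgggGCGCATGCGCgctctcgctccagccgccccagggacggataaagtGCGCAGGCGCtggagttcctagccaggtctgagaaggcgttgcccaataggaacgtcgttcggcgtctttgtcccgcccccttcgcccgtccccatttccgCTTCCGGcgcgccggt
Sdha: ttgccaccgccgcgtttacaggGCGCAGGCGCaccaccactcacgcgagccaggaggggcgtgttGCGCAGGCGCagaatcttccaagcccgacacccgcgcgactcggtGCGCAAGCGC
Ndufa5: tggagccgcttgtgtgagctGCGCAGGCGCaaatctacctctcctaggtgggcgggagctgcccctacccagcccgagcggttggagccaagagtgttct
Ndufaf4: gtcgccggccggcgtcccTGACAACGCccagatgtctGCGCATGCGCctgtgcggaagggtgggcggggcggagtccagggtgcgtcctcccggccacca
Cox6b2: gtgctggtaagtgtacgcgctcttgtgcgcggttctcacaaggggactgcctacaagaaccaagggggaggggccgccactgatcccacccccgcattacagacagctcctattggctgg

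Most core subunits gave high values in newborn lung. The mean over 42 arrays was above 10 for 31 of 34 complex I subunits (median 11.35), 4 of 4 complex II subunits (median 11.19), 8 of 8 complex III subunits (median 11.36) and 10 of 11 complex IV subunits (median 12.67). None of the 8 complex I assembly factors (median 8.42), the 4 complex II assembly factors (median 9.35) or the 8 complex IV isoforms (median 8.33) reached 10. These are values of single probe sets, which differ in how strongly they bind their transcript, so the order of genes is approximate. The probe sets of Cox7c (5.99), Ndufb4 (4.71) and the testis isoform Cox7b2 (4.09) were low, and 10 probe sets that name several genes, among them further ones of Ndufb4 and those of Ndufs6 and Ndufa11, were not used.

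Of the 8 isoforms of complex IV, 5 had the widest spread between groups of all members. The widely expressed form of subunit 4, Cox4i1, had a mean of 13.06, and its 14 group means spanned 0.26. The group means of Cox7a1 spanned 2.49, those of Cox8b 1.83, those of Cox6b2 1.82, those of Cox6a2 1.57 and those of Ndufa4l2 1.48. Next came the assembly factors Ndufaf4 and Ndufaf5, at 1.06 each, while Cox4i2 spanned 0.86, Cox8c 0.31 and Cox7b2 0.25. For the 3 muscle forms this spread lay largely within groups, with a within-group SD of 1.04 for Cox7a1, 0.95 for Cox8b and 0.83 for Cox6a2. For Cox6b2 it was 0.19.

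**Figure D1:**
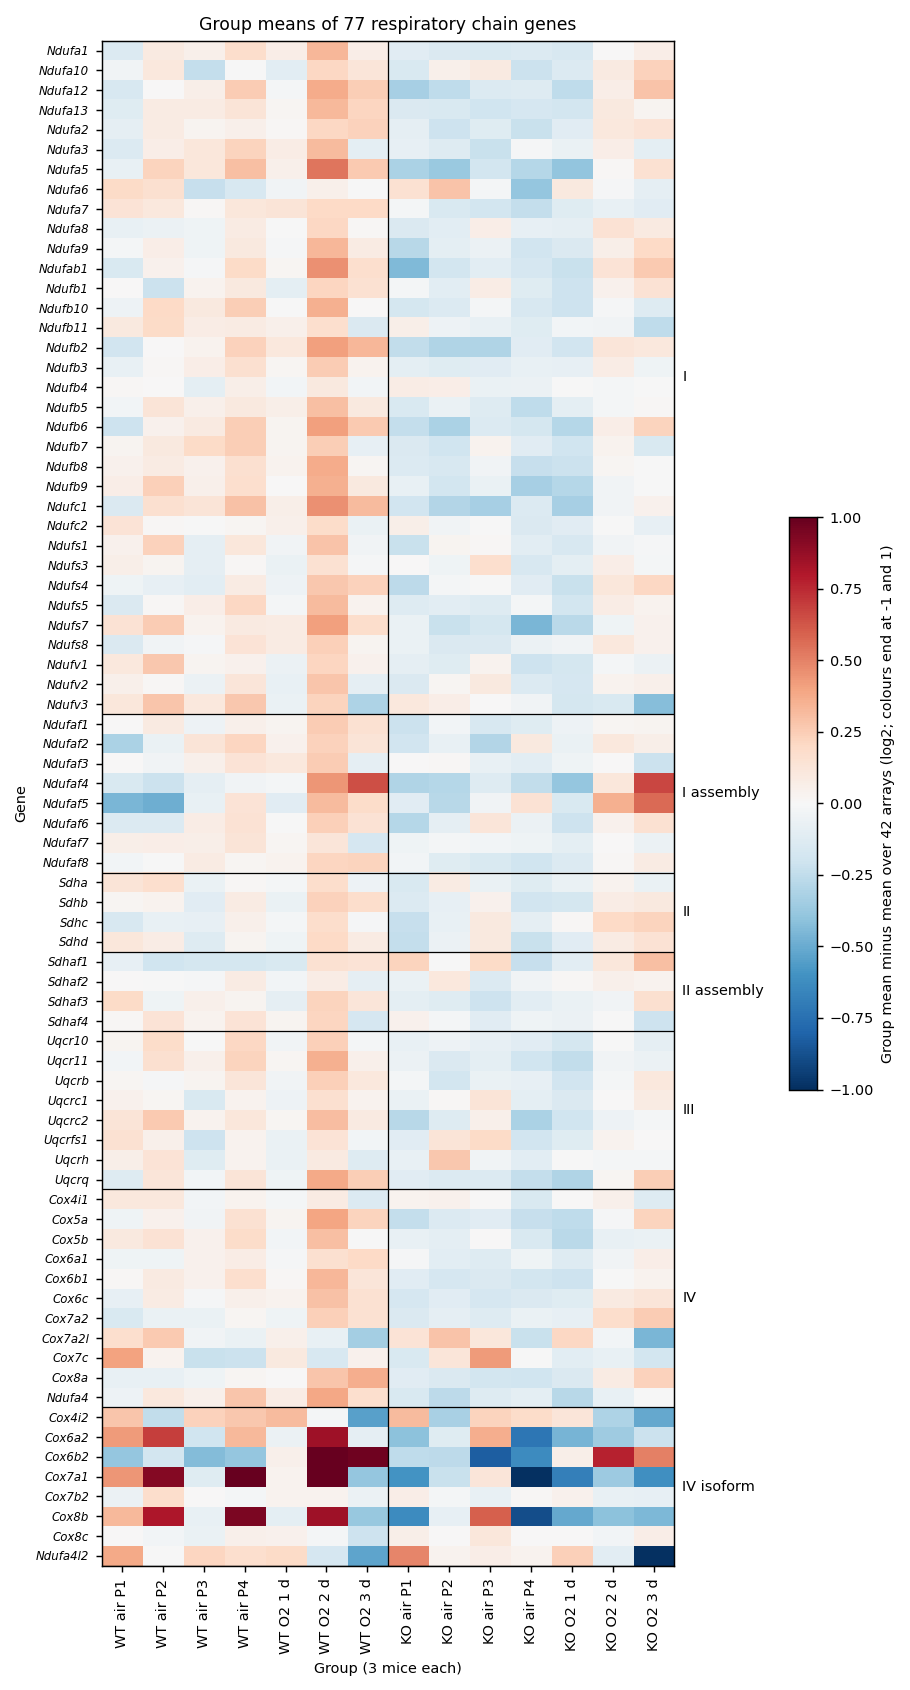
Heat map of the 77 genes (rows, by complex) in the 14 groups (columns). Colour is the group mean minus the gene's mean over 42 arrays in log2 units, with colours ending at -1 and 1, and the largest deviations are those of Cox7a1, Cox8b, Cox6b2, Cox6a2 and Ndufa4l2.

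Several arrays were rich in heart or skeletal muscle transcripts, and the core subunits were high in most of those rich in heart transcripts. A heart score was the mean deviation of 14 heart muscle genes from their mean, set relative to the median array, and a skeletal muscle score was made in the same way from 15 genes. In 8 arrays (5 wild type, 3 knockout) one of the scores was over 1. The highest heart score, 3.48, was in wild type hyperoxia 2 d replicate 1, followed by wild type air P2 replicate 1 (2.71), P1 replicate 1 (2.61) and P4 replicate 3 (2.15). In this order the mean deviation of the 57 core subunits was 0.52, 0.34, 0.22 and 0.27, while the lowest, -0.32, was in knockout air P2 replicate 2, with a heart score of -0.63. The highest skeletal muscle score, 4.78, was in knockout air P3 replicate 2, where the core subunits were at 0.19. The other 3 rich arrays did not have high core subunits: they were at 0.03 in knockout air P2 replicate 3 (heart 1.65, skeletal muscle 2.13), at -0.09 in wild type air P1 replicate 3 (skeletal muscle 1.62) and at -0.17 in knockout air P3 replicate 3 (skeletal muscle 1.80). Nppa, an atrial hormone gene, ranged from 5.51 to 14.46 over the arrays with a median of 6.46, and Mylpf, a fast skeletal muscle myosin light chain, from 5.23 to 13.20.

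The muscle isoforms of complex IV were high in 6 of the 8 rich arrays. Their mean deviation was between 0.82 and 2.51 there, but -0.13 in wild type air P1 replicate 3 and -0.66 in knockout air P3 replicate 3. Cox7a1 was at 10.45, 7.74 and 8.28 in the 3 mice of wild type hyperoxia 2 d and at 6.65, 9.44 and 6.51 in those of knockout air P3. Cox6a2 was at 10.89, 8.66 and 8.91 in the first of these groups and at 8.34, 10.59 and 8.09 in the second. Cox8b was at 10.60, 8.19 and 8.80, and at 8.19, 10.82 and 7.83. In each group 1 mouse stood above the other 2. Of the 77 members, 53 had their highest value in wild type hyperoxia 2 d replicate 1, and 33 their lowest in knockout air P2 replicate 2.

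Over the 42 arrays, the mean of the core subunits and the heart score had a Pearson r of 0.758 (Spearman rho 0.571). It was 0.815 over the 21 wild type and 0.515 over the 21 knockout arrays, and 0.400 over the 34 arrays with neither score above 1. By complex r was 0.740 for complex I, 0.706 for complex II, 0.811 for complex III and 0.715 for complex IV, against 0.334 for the complex I assembly factors. These are descriptions, since both measures of a point come from the same array and normalization. The heart scores were unevenly spread over genotypes: in air they ranged from -0.29 to 2.71 in wild type and from -1.21 to 1.65 in knockout arrays. A score from 8 brown fat genes, a tissue that also expresses Cox7a1 and Cox8b, had an r of 0.622 with the core subunits and 0.709 with the muscle isoforms over the 42 arrays. In air it ranged from -0.23 to 2.23 in wild type (median 0.26) and from -0.32 to 1.69 in knockout (median -0.09), and in hyperoxia from -0.43 to 1.97 (median 0.66) and from -0.35 to 1.82 (median -0.21). The leading comparisons below are given with all arrays and, beside this, without the 8 rich arrays and with the 2 muscle scores as covariates. Shares of all genes called are given only for the fit with all arrays and no scores. Leaving out the rich arrays leaves 1 array in wild type air P1 and 1 in knockout air P3. That fit is therefore not used for comparisons of these single groups.

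**Figure D2:**
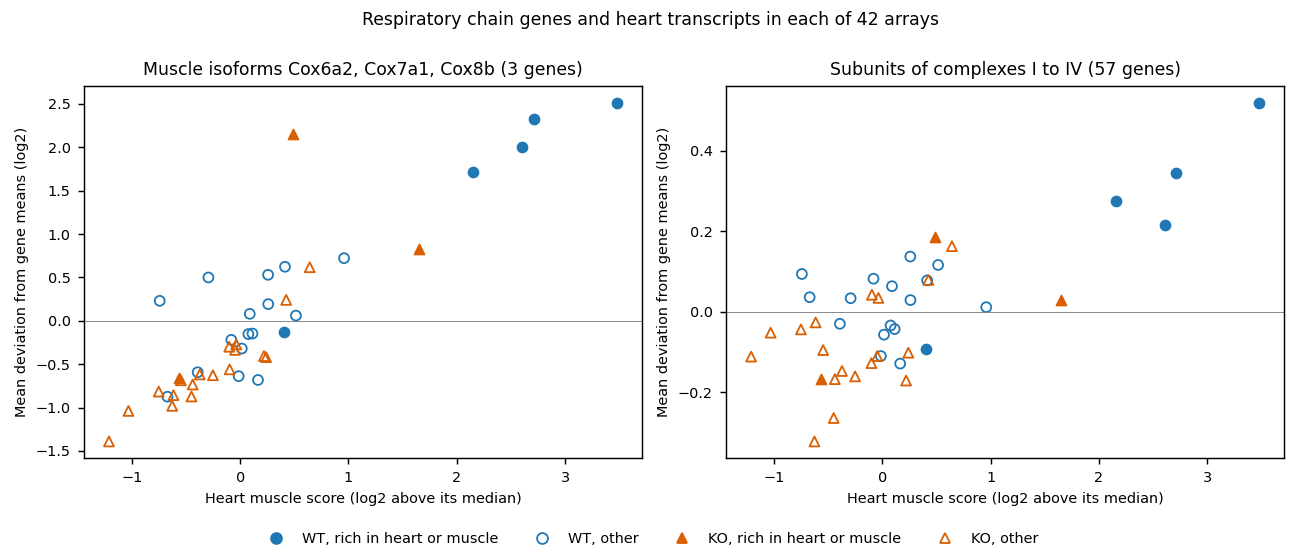
Mean deviation of the 3 muscle isoforms Cox6a2, Cox7a1 and Cox8b, and of the 57 core subunits, in log2 units (vertical axes), against the heart muscle score of each of the 42 arrays. Circles are wild type and triangles knockout arrays, and filled symbols mark the 8 arrays with a heart or skeletal muscle score over 1, which hold the highest values of both measures.

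In air, many respiratory chain genes were slightly lower in knockout than in wild type lungs. The part of genetic background, which the labels do not give, in any genotype difference here was not tested. Averaged over P1 to P4 (12 arrays against 12), 36 of the 77 members were lower and 1 was higher at an adjusted p under 0.05 (limma, Benjamini-Hochberg over 18194 genes). Of all genes tested 29.0% were called in this comparison, 14.4% lower and 14.5% higher. The median change of the 77 was -0.14, against 0.01 for all genes, and 70 of 77 were below 0. Lower were 21 of 34 complex I subunits (median -0.18), 3 of 8 complex I assembly factors, 3 of 8 complex III subunits (median -0.15) and 7 of 11 complex IV subunits (median -0.12), and of 4 complex II assembly factors 2 were lower and 1 was higher. None of the 4 complex II subunits and none of the 8 isoforms was called.

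Among complex I subunits the largest fall was that of Ndufa5, an accessory subunit. It was at 10.73, 10.28 and 10.24 at P1, 11.14, 10.46 and 10.53 at P2, 10.78, 10.49 and 10.53 at P3 and 10.56, 10.70 and 11.11 at P4 in wild type. In knockout it was at 10.15, 10.14 and 10.23 at P1, 10.27, 9.74 and 10.34 at P2, 10.10, 10.64 and 10.17 at P3 and 10.27, 10.001 and 10.33 at P4. The knockout mice were all below the wild type mice at P1, P2 and P4, and at P3 replicate 2, the array with the highest skeletal muscle score, lay among them. The mean change was -0.43 (SE 0.0959, limma adjusted p = 0.001055), or 1.35-fold lower, and -0.38 without the rich arrays (adjusted p = 0.0019).

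Ndufs7, the subunit that carries the last iron-sulfur cluster before ubiquinone, ranged from 10.92 to 11.53 in wild type (median 11.01) and from 10.34 to 11.16 in knockout (median 10.73). Its change was -0.36 (SE 0.0729, limma adjusted p = 0.000400). Ndufc1, a small membrane subunit, ranged from 10.98 to 11.89 (median 11.46) and from 10.67 to 11.35 (median 11.18), a change of -0.35 (SE 0.0841, adjusted p = 0.002307). The ranges of both genes overlapped between genotypes. Uqcrc2, a core protein of complex III, ranged from 11.15 to 11.73 and from 10.68 to 11.57, a change of -0.30 (SE 0.0718, limma adjusted p = 0.001933). The accessory complex I subunits Ndufb9 (-0.29) and Ndufb6 (-0.26) followed. Ndufa7, another accessory subunit, had smaller ranges, from 11.73 to 11.99 in wild type (median 11.88) and from 11.41 to 11.82 in knockout (median 11.64), which overlapped only between 11.73 and 11.82. Its change was -0.24.

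In complex IV, Ndufa4 (-0.26), Cox6b1 (-0.23), Cox5a (-0.21), Cox5b (-0.20), Cox8a (-0.12) and Cox6a1 (-0.08) were lower in knockout lungs. Cox4i1, with a change of -0.07 (limma adjusted p = 0.1743), was not called. Nor were Ndufs1 (-0.15) and Ndufv1 (-0.21), which carry redox centres of complex I, Sdha (-0.13) and Sdhb (-0.10), the catalytic subunits of complex II, or Uqcrc1 (0.01) and the Rieske iron-sulfur protein Uqcrfs1 (0.00) of complex III. Cox7a1 had the largest change, -1.04, but also a SE of 0.40 and an adjusted p of 0.05014. The single gene that rose was Sdhaf1, an assembly factor that helps insert the iron-sulfur clusters of complex II, with a change of 0.20 (SE 0.0478, limma adjusted p = 0.001913).

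The 37 calls were not equally firm. Counts from the other fits are given without the share of all genes called in them, so they show only how the member calls vary. With the heart and skeletal muscle scores as covariates 18 members were called (16 lower, median change -0.07), and without the 8 rich arrays 17 (16 lower, median -0.09). Called in all 3 fits were 16 of the 37, among them Ndufa5, Ndufs7, Ndufc1, Ndufa7, Uqcrc2, Cox6b1 and Sdhaf1. Of the 22 called genes with a next probe set of mean 8 or more, 21 had the same sign there and 9 were also called. Not called there were Ndufa5 (-0.22, limma adjusted p = 0.0627), Ndufc1 (-0.21, adjusted p = 0.05785), Cox6b1 (-0.13), Uqcrc2 (-0.11), Ndufs7 (-0.09), Cox5a (-0.05) and Ndufb9 (-0.04), among others, while Ndufa7 was (-0.23).

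Marker genes of other tissues also differed between genotypes in air. Called lower in knockout arrays were 6 of 14 heart genes (median change -0.86), 0 of 15 skeletal muscle genes, 10 of 10 liver genes (median -2.22) and 6 of 8 macrophage genes (median -0.41), while 10 of 10 measured thymocyte genes were higher (median 0.52). Of 8 brown fat genes 0 were called (median -0.41). With the brown fat score added to the muscle scores as covariates, 19 members were called, 17 of them lower, and 18 of the 37 calls were kept. With liver and thymocyte scores added to the 2 muscle scores as covariates, 27 members were called, all lower, with a median of -0.11. The rise of Sdhaf1 was thus not called in that fit. The part of macrophage transcripts in the member changes was not tested.

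At single ages few members passed, and the share of all genes called varied widely. At P1 1 was lower (Cox7c) and 1 higher (Sdhaf1), with 6.78% of all genes called (2.51% lower, 4.27% higher). At P2 6 were lower, all subunits of complex I and including Ndufa5 (-0.59) and Ndufs7 (-0.48), with 13.1% of all genes called (5.17% lower). The thymocyte score was 0.94 to 3.54 in knockout and 0.05 to 0.22 in wild type P2 arrays. The liver score reached 7.78 in wild type and 4.52 in knockout P2 arrays, and the part of either in these calls was not tested. At P3 5 were lower, among them Ndufc1 (-0.46) and the assembly factor Ndufaf2 (-0.42), and 2 higher, with 21.6% of all genes called (12.7% lower, 8.99% higher). At P4 only Ndufa7 was called, at -0.35, with 0.726% of all genes called (0.429% lower). Of the 77 members 74 were below 0, with a median of -0.23. Members tend to vary together within an array, so these signs are not independent. The core subunits were at 0.27 in wild type replicate 3, rich in heart transcripts, and at -0.26 in knockout replicate 2. Of the 37 genes called over the 4 ages, 30 had the same sign at each age. Cox6a1, Ndufa1, Ndufa2, Ndufa3, Sdhaf1, Sdhaf4 and Uqcrc2 did not. With the muscle scores as covariates 2 of the 2 calls at P1, 6 of 6 at P2, 5 of 7 at P3 and 1 of 1 at P4 were kept. Without the rich arrays 2 of 6 at P2 (Ndufa5 and Ndufs7) and 0 of 1 at P4 were kept. That fit leaves 1 wild type P1 array and 1 knockout P3 array, so it does not show which calls hold at P1 and P3.

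After hyperoxia the difference between genotypes had the same direction. Over 1 to 3 d (9 arrays against 9), 17 of the 77 members were lower in knockout than in wild type and none was higher, with 12.5% of all genes called (6.18% lower, 6.30% higher). The median change was -0.14, against 0.01 for all genes. The 17 were 9 complex I subunits, 2 complex I assembly factors and 6 complex IV subunits. None of complex II, complex III or the isoforms was called. The air and hyperoxia comparisons share no array, and 16 of the 17 genes (94.1%) were among those called lower in air, which is 43.2% of the 37. Over all genes, the share called in the same direction in both was 67.4% of those called in hyperoxia and 29.0% of those called in air.

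Ndufa7 did not overlap between genotypes in hyperoxia. It ranged from 11.89 to 12.11 in the 9 wild type arrays (median 11.93) and from 11.57 to 11.82 in the 9 knockout arrays (median 11.66). The change was -0.28 (SE 0.0436, limma adjusted p = 3.8e-05). Ndufc1 ranged from 11.31 to 12.16 and from 10.93 to 11.48, a change of -0.39 (SE 0.0971, limma adjusted p = 0.006884). Ndufa5 ranged from 10.43 to 11.53 and from 10.02 to 10.89, a change of -0.36 (SE 0.1107, adjusted p = 0.02927). Ndufa4 ranged from 11.57 to 12.20 and from 11.26 to 11.61, a change of -0.33 (SE 0.0751, limma adjusted p = 0.003135). The ranges of Ndufc1, Ndufa5 and Ndufa4 overlapped. Further falls were those of Ndufs7 (-0.31), Ndufb6 (-0.23) and Cox5a (-0.23). The heart score ranged from -0.74 to 3.48 in wild type and from -1.03 to 0.64 in knockout hyperoxia arrays. None of 14 heart genes (median change -0.50) or 10 liver genes (median -1.68) was called, and 4 of 8 macrophage genes were lower. Of the rich arrays, only wild type 2 d replicate 1 is in this comparison, and the lower count without that array alone is given below. Leaving out the other rich arrays alters only the estimated spread. Of the 17 genes, 14 were also called without the rich arrays and with the scores as covariates, and 14 with the brown fat score added. All 15 of them with a next probe set had the same sign there, and 4 were called: Ndufa5 (-0.16) and Ndufs7 (-0.11) were not, and Ndufa7 (-0.25) and Ndufc1 (-0.28) were.

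The number 17 depended on single arrays and on the probe sets. It was 9 without wild type hyperoxia 1 d replicate 1, 8 without wild type hyperoxia 2 d replicate 1, 9 without knockout hyperoxia 1 d replicate 3, 10 without knockout hyperoxia 2 d replicate 1 and 11 without knockout hyperoxia 2 d replicate 3. It was 8 when all probe sets of a gene were averaged. By day, 0 members were called at 1 d (limma; 10 at an unadjusted p under 0.05; 2.96% of all genes called, 0.896% lower), 4 at 2 d (5.13%, 2.03% lower) and 3 at 3 d (9.82%, 6.14% lower). The 3 genes at 3 d were Ndufa7 (-0.31) and the isoforms Cox6b2 (-0.46) and Ndufa4l2 (-0.46), all lower in knockout. These 3 were also called with the muscle scores as covariates, and 0 of the 4 at 2 d were. Without the rich arrays the counts were the same, but no 3 d array is rich, while the 2 d comparison loses wild type replicate 1.

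**Figure D3:**
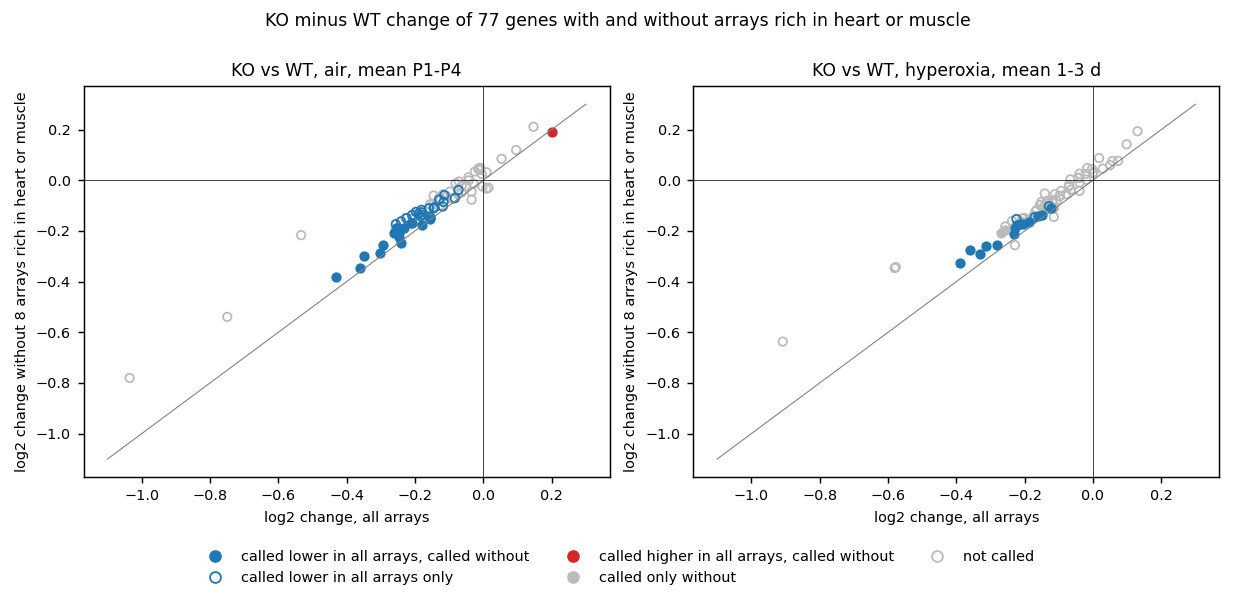
Change of each of the 77 genes between knockout and wild type in log2 units, with all arrays (horizontal axis) and without the 8 arrays rich in heart or muscle transcripts (vertical axis), for air and for hyperoxia. Most points lie below 0 on both axes, and in air the lowest values, those of Cox7a1 and Cox8b, are nearer 0 without the rich arrays.

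After 3 d of hyperoxia a small set of members was called in the same direction in both genotypes, led by Cox6b2 and Ndufa4l2. After 3 d in wild type, 13 members were called, 4 higher and 9 lower, with 27.5% of all genes called (15.0% higher, 12.5% lower), and the median change was -0.04 against -0.03 for all genes. In knockout, 22 were called, 18 higher and 4 lower, with 31.7% of all genes called (17.0% higher, 14.7% lower), and the median was 0.19 against 0.04. The 2 comparisons share no array. Called in the same direction in both were 8 genes, or 61.5% of the 13 and 36.4% of the 22. Over all genes these shares were 68.7% of those called in wild type and 59.7% of those called in knockout. Cox6b2, Ndufaf4, Cox8a and Sdhaf1 were higher, and Cox4i2, Ndufa4l2, Ndufv3 and Cox7a2l lower.

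Cox6b2, the testis isoform of subunit 6b, rose most. In wild type it was at 8.43, 8.35 and 8.34 in air at P4 and at 9.69, 9.91 and 9.60 after 3 d of oxygen. In knockout it was at 8.23, 7.99 and 8.17 in air and at 9.45, 8.94 and 9.41 in oxygen. All oxygen values lay above all air values. The change was 1.36 (SE 0.1521, limma adjusted p = 2.785e-08), or 2.56-fold, in wild type and 1.13 (SE 0.1521, adjusted p = 5.988e-07) in knockout. The rise was already present at 2 d, at 9.58, 9.82 and 9.85 in wild type and 9.26, 9.69 and 9.62 in knockout. At 1 d Cox6b2 was at 8.93, 8.81 and 8.70, and at 8.84, 8.77 and 8.85, and was not called. Its widely expressed counterpart Cox6b1 changed by -0.05 in wild type and 0.22 in knockout at 3 d and was called in neither.

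Ndufaf4, an assembly factor of complex I, was at 9.27, 9.37 and 9.45 in wild type in air at P4 and at 10.15, 10.03 and 9.94 after 3 d of oxygen. In knockout it was at 9.18, 9.05 and 9.21 and at 10.14, 10.16 and 9.90. The groups did not overlap in either genotype. The rise was 0.68 (SE 0.1309, limma adjusted p = 0.0001506) and 0.92 (SE 0.1309, adjusted p = 1.677e-06). A second probe set of Ndufaf4 gave 0.40 in wild type (adjusted p = 0.05666, not called) and 0.61 in knockout. Cox8a, the widely expressed form of subunit 8, was at 11.23, 11.12 and 11.28 in air and at 11.56, 11.54 and 11.56 in oxygen in wild type. The knockout values were 11.09, 10.86 and 11.02 and at 11.52, 11.37 and 11.37, so that oxygen and air values did not overlap. It rose by 0.34 (limma adjusted p = 0.001179) and by 0.43. Sdhaf1 was at 8.75, 8.92 and 8.94 in air and at 9.16, 9.13 and 9.25 in oxygen in wild type, and at 8.89, 8.62 and 8.93 and at 9.42, 9.30 and 9.30 in knockout. It rose by 0.31 (limma adjusted p = 0.01402) and by 0.53 (adjusted p = 5.520e-05).

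Cox4i2, the lung isoform of subunit 4, fell. It was at 8.60, 8.71 and 8.41 in wild type in air at P4 and at 7.96, 7.93 and 7.38 after 3 d of oxygen. The knockout values were 8.45, 8.28 and 8.72 and at 7.48, 7.89 and 8.01. All oxygen values lay below all air values. The change was -0.81 (SE 0.1588, limma adjusted p = 0.0001744), or 1.76-fold lower, and -0.69 (SE 0.1588, adjusted p = 0.0009526). Its counterpart Cox4i1 changed by -0.17 (adjusted p = 0.1215 by limma) in wild type and 0.02 in knockout.

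Ndufa4l2 was at 10.02, 10.02 and 9.94 in wild type in air at P4 and at 9.28, 9.30 and 9.32 after 3 d of oxygen. The knockout values were 9.92, 9.68 and 9.98 and at 8.84, 8.49 and 9.17. The groups did not overlap. The change was -0.70 (SE 0.1129, limma adjusted p = 1.434e-05) and -1.02 (SE 0.1129, adjusted p = 1.912e-08), or 2.03-fold lower in knockout. At 2 d the gene was at 9.69, 9.62 and 9.67 in wild type, where it was called (-0.38), and at 9.74, 9.70 and 9.73 in knockout, where it was not. Ndufa4 was called in neither genotype at 3 d.

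Cox4i2 and Ndufa4l2 are both known from pericytes and vascular smooth muscle, and a list of 11 genes of these cells was measured beside them. At 3 d 2 of the 11 were higher and 2 lower in wild type, and 1 was higher and 3 lower in knockout. The pericyte gene Higd1b fell by 1.04 and by 1.19, Pdgfrb by 0.34 in wild type, and Cspg4 rose by 0.67 and by 0.40. The score of the list ranged from 0.00 to 0.10 in air and from -0.11 to -0.07 in oxygen in wild type, and from -0.19 to 0.03 and from -0.60 to 0.11 in knockout. The part of pericyte content in the fall of the 2 isoforms was not tested. Over the 14 group means, the genes most like Ndufa4l2 were Dpysl2 and Reps2 (Pearson r 0.976 each), Slc4a5 and 1700052K11Rik (0.954 each) and Dlg3 (0.953). Those most like Cox4i2 were Tmem254a (0.896), 4930577N17Rik, 1700052K11Rik and Cyb5b (0.890 each) and Fads1 (0.885).

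Among the genes lower in both genotypes, Ndufv3, a small accessory subunit of complex I, was at 11.65, 11.63 and 11.98 in wild type in air and at 11.18, 11.18 and 11.17 in oxygen, and in knockout at 11.43, 11.40 and 11.51 and at 11.19, 10.79 and 11.18. The groups did not overlap. Its change was -0.58 (limma adjusted p = 0.001454) and -0.39 in knockout (adjusted p = 0.02574). Cox7a2l, a factor that joins complexes III and IV into supercomplexes, was at 11.56, 11.56 and 11.58 in air and at 11.33, 11.32 and 11.23 in oxygen in wild type, and at 11.46, 11.36 and 11.43 and at 11.33, 11.10 and 11.10 in knockout. It fell by 0.27 and by 0.24. Also called in wild type were falls of Ndufa3 (-0.31), Sdhaf4 (-0.31) and Ndufaf7 (-0.30).

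In knockout, 14 further members were called higher in the 3 d comparison. They included Ndufs7 (0.50, SE 0.1457, limma adjusted p = 0.007683), Uqcrq of complex III (0.48), Cox5a (0.45) and Ndufa10 (0.45), and overall 8 of 34 complex I subunits, 3 of 8 complex I assembly factors, 1 of 4 complex II subunits and 3 of 11 complex IV subunits were higher. The 22 calls varied with single arrays: there were 11 without knockout air P4 replicate 2, an array with low core subunits (-0.26), and 13 without knockout hyperoxia 3 d replicate 1. With the muscle scores as covariates there were 35, and without the rich arrays 34. All 22 genes were called in both of those fits. Neither knockout group held a rich array, so leaving those out kept these log2 changes as they were and altered only the estimated spread. In wild type, where air P4 replicate 3 was left out, 11 of the 13 were called in both fits. The fit with scores called 23 there (16 higher).

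**Figure D4:**
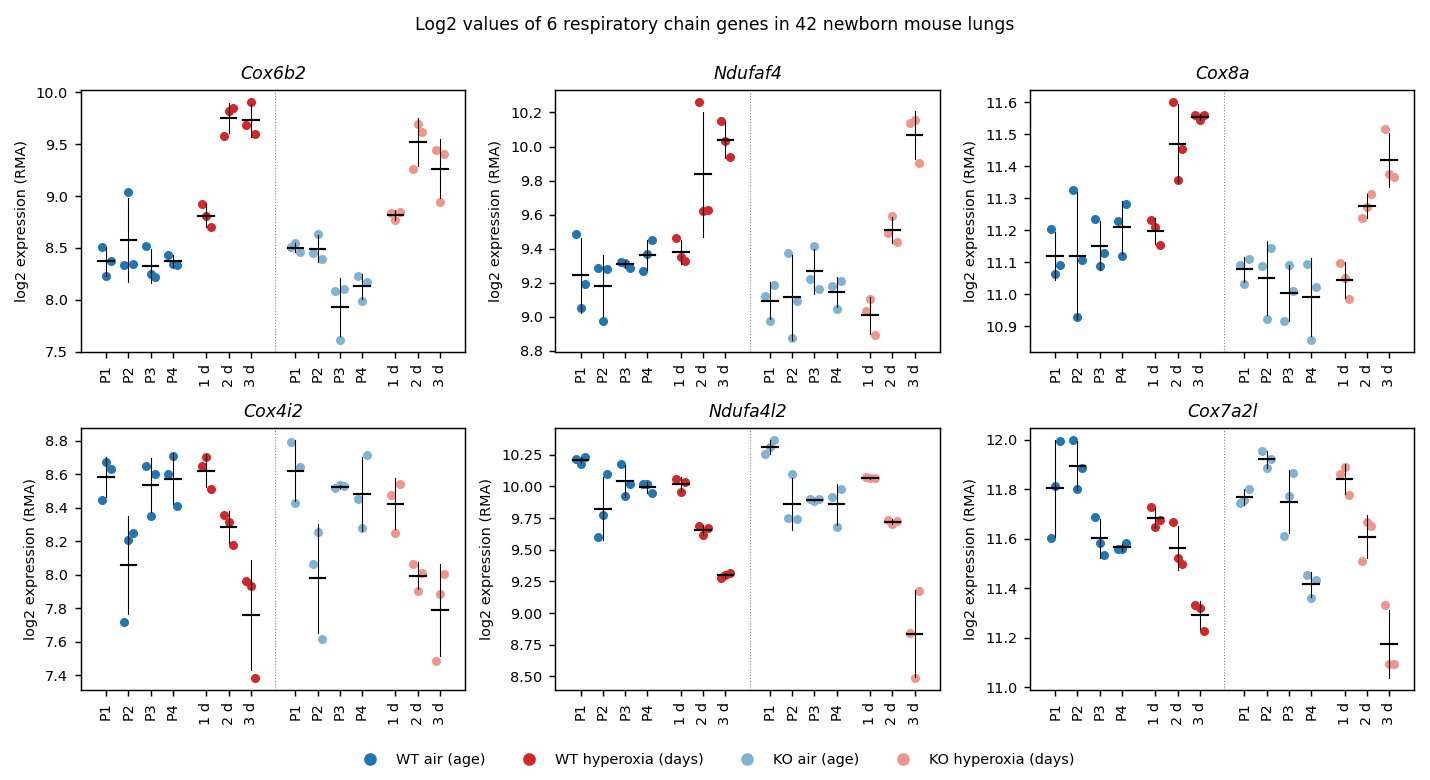
Values of Cox6b2, Ndufaf4, Cox8a, Cox4i2, Ndufa4l2 and Cox7a2l in log2 units (vertical axes) in the 14 groups of 3 mice. Dots are arrays, lines are group means and bars are ± SD, and at 3 d of hyperoxia the first 3 genes lie above, and the other 3 below, the air group of the same age in both genotypes.

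After 1 d of hyperoxia almost nothing was called. In wild type only Cox4i2 was, at 0.56 (limma adjusted p = 0.03576; 4.33% of all genes called, 2.64% higher), against an air group at 7.72, 8.21 and 8.25 with all 3 values below those of P1 and P3, and it was not called in the fits that account for muscle transcripts. In knockout 0 members were called by limma (2 at an unadjusted p under 0.05; 9.06% of all genes called). At 2 d 6 were higher and 1 lower in wild type (5.40% of all genes called, 2.89% higher and 2.51% lower), led by Cox6b2 at 1.42, and 4 were higher and 2 lower in knockout (12.6%, 8.87% higher and 3.70% lower), led by Cox6b2 at 1.59. In wild type 74 of 77 members were above 0 at 2 d with a median of 0.26. This group holds the array richest in heart transcripts, and only Cox6b2 was called in the fits both with the scores and without the rich arrays.

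The hyperoxia effect was compared directly between genotypes. Averaged over 1 to 3 d, 0 members were called by limma (1 at an unadjusted p under 0.05; smallest adjusted p 0.111, of Cox7c), with 1.19% of all genes called. The difference was 0.01 (SE 0.1242) for Cox6b2, -0.09 (SE 0.1296) for Cox4i2, -0.04 (SE 0.0922) for Ndufa4l2 and -0.12 (SE 0.1069) for Ndufaf4. At 3 d alone 0 members were called (9 at an unadjusted p under 0.05; 0.561% of all genes called), although 72 of 77 differences were above 0, with a median of 0.21. A larger number of calls in knockout than in wild type is therefore not shown to be a difference in response.

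**Figure D5:**
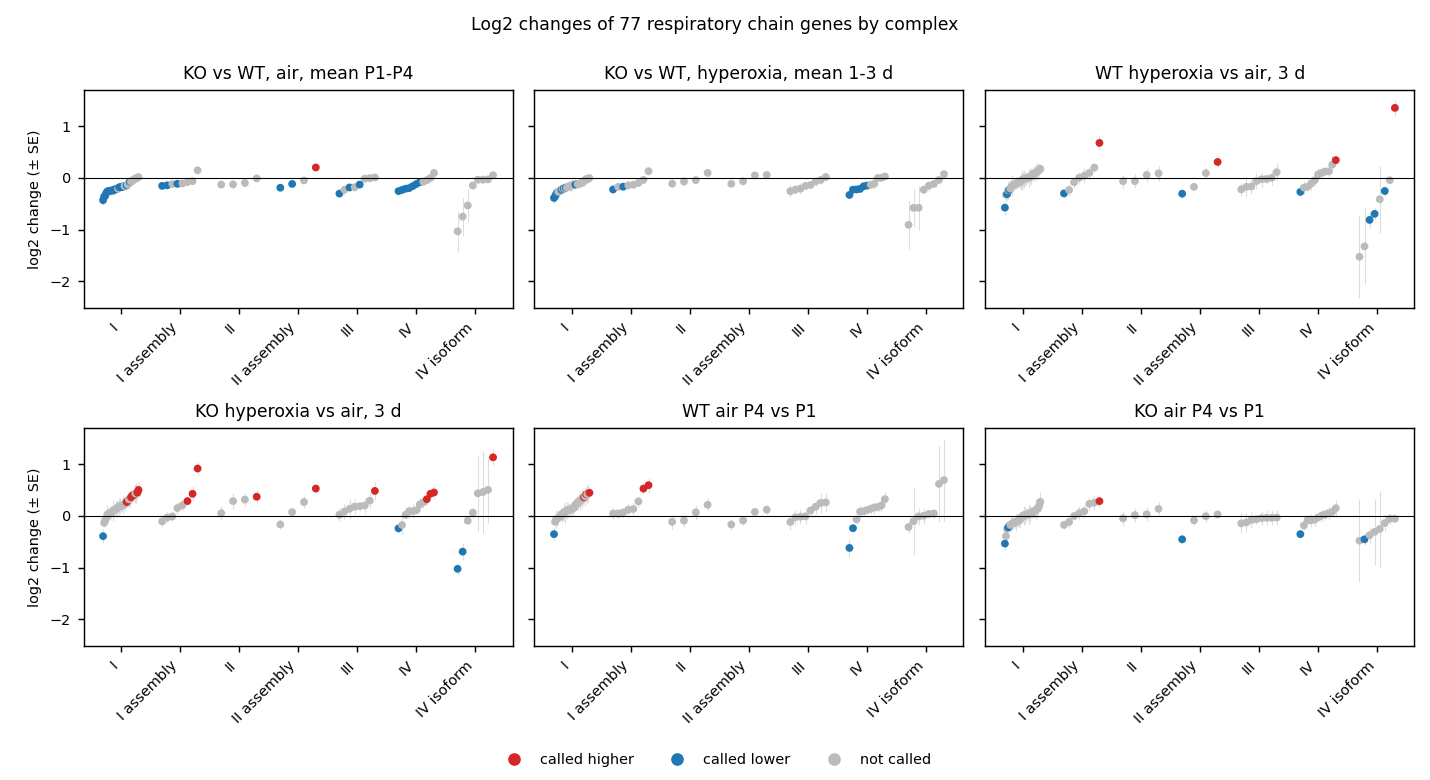
Change of each of the 77 genes, by complex, in the 6 leading comparisons. Points are log2 changes and bars ± SE from limma, red for genes called higher, blue for lower and grey for not called; blue points in complexes I and IV are most in the air genotype comparison (21 of 34 and 7 of 11) and fewer in hyperoxia (9 of 34 and 6 of 11), and the hyperoxia comparisons are led by Cox6b2, Ndufaf4, Cox4i2 and Ndufa4l2.

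From P1 to P4 in air, few members were called with all arrays and no scores, and the wild type count varied with the fit. In wild type 5 were higher and 3 lower (22.4% of all genes called, 11.2% higher and 11.3% lower), and in knockout 1 was higher and 6 lower (21.6%, 8.09% higher and 13.5% lower). Ndufaf2, an assembly factor of complex I, was at 7.86, 7.81 and 7.73 at P1 and at 8.23, 8.28 and 8.48 at P4 in wild type, a rise of 0.53 (SE 0.104, limma adjusted p = 0.000256). In knockout it was at 7.83, 7.80 and 8.13 and at 8.28, 8.09 and 8.25, a rise of 0.29 (adjusted p = 0.04654). The ages did not overlap in wild type and did in knockout.

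Ndufa6, an accessory complex I subunit, fell in both genotypes, by 0.35 and by 0.54 (limma adjusted p = 0.02594 and 0.00096). It was at 10.94, 11.19 and 11.21 at P1 and at 10.64, 10.72 and 10.93 at P4 in wild type, and at 11.07, 11.05 and 11.09 and at 10.64, 10.42 and 10.55 in knockout. No P4 value reached a P1 value of the same genotype. Cox7a2l fell by 0.24 and by 0.35. These 3 genes were the ones called in the same direction in both genotypes, 37.5% of the 8 and 42.9% of the 7, against 58.2% and 60.5% over all genes. Leaving out the rich arrays leaves 1 wild type P1 array (replicate 2), so that fit does not show which of the wild type calls hold.

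Also called in wild type were rises of Ndufaf5 (0.60), Ndufb6 (0.45), Ndufa12 (0.42) and Ndufa3 (0.36) and a fall of Cox7c (-0.62). Also called in knockout were falls of Sdhaf1 (-0.45), Ndufa4l2 (-0.45), Ndufa7 (-0.22) and Ndufc2 (-0.20). The difference between genotypes was called for 0 members by limma (4 at an unadjusted p under 0.05; 0.0275% of all genes called). The wild type count depended on arrays: it was 19 without P1 replicate 1, which is rich in heart transcripts, 4 without P1 replicate 2 or P1 replicate 3, and 5 without P4 replicate 3. With the muscle scores as covariates it was 33, of which 30 were higher. All 8 calls were kept in that fit. The fit without the rich arrays, with 1 wild type P1 array, does not show which calls hold.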

How the data were processed

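The deposited table holds log2 values for 45101 probe sets on 42 arrays. They were made by the authors with GCOS and RMA, per the submitters' processing notes (versions not given in the sources used here); no further normalization was applied, and array medians lie between 6.31 and 6.40. Genes came from the array annotation, and probe sets with exactly 1 symbol were kept. All 42 arrays were fitted with 14 group means in limma 3.58.1 (R 4.3.3; 28 residual degrees of freedom) over 18194 genes, two-sided, with Benjamini-Hochberg adjustment and calls at an adjusted p under 0.05. The fit was tested on simulated data with independent noise for each gene. That check does not cover genes that vary together within an array, such as those of heart muscle. Python 3.11.15, pandas 2.3.3 and matplotlib 3.10.9 made promoter searches, counts and figures. Each leading comparison names its 6 largest rises and falls at most, plus isoform pairs and core subunits. The members and lists were chosen with earlier results of these data known. Alternatives were other normalizations, filters, probe sets, weights, replicate blocks, muscle and brown fat scores and left-out arrays. The number of arrays limits the precision.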

Additional observations from a re-analysis of the deposited data

How the results depend on the processing

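The counts of members called are set against the alternatives here. The share of all genes called in each alternative is not given beside them. Whether a rise or fall in a count is particular to the members is therefore not shown. With the heart and skeletal muscle scores as covariates they were 18 for knockout against wild type in air (37 with all arrays and no scores), 33 (8) and 12 (7) for P4 against P1 in wild type and knockout, and 23 (13) and 35 (22) for 3 d of hyperoxia in wild type and knockout. With liver and thymocyte scores added they were 29 for P4 against P1 in wild type, 24 for wild type hyperoxia and 36 for knockout hyperoxia. Without the 8 arrays rich in heart or muscle they were 17 for genotype in air and 34 for knockout hyperoxia. This leaves 1 array each in knockout air P3 (replicate 1) and wild type air P1 (replicate 2), assumed to vary like the other groups. It takes no array from the knockout hyperoxia comparison at 3 d. With the brown fat score added to the 2 muscle scores they were 19 for genotype in air, 23 and 13 for P4 against P1, and 22 and 34 for 3 d of hyperoxia. This alternative and the next were chosen after seeing the data. Leaving out only the 6 arrays with a score over 2 gave 16 and 11 for P4 against P1 and 36 for knockout hyperoxia. Array weights gave 30 and 12 for P4 against P1 and 33 (17) for genotype in hyperoxia, where the mean of all probe sets gave 8. Fitting only the arrays of the contrast gave 22 for genotype in air. Leaving out 1 array at a time gave 25 to 42 for genotype in air, 8 to 20 for genotype in hyperoxia, 4 to 19 and 5 to 6 for P4 against P1, and 10 to 14 and 11 to 20 for hyperoxia at 3 d. The genotype difference in the hyperoxia effect, averaged over days, gave 0 throughout. Cox6a2 in wild type at 3 d changed sign with 4 scores, to 0.59 (limma adjusted p = 0.0293). Mice of the same replicate number showed no regular likeness: of 45 pairs, 10 had deviations correlated over 0.1, and in 0 of 15 comparisons did every pair. The correlations ranged from -0.426 to 0.434, and with 3 arrays a group this check cannot exclude pairing. With the replicate number as a block the counts were 39 and 20 for genotype in air and hyperoxia, 12 and 8 for P4 against P1, 14 and 25 for hyperoxia, and 0 for the difference.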

Other observations

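Genes that serve the same chain but lie outside the symbol rule were counted from lists written with earlier results known. In knockout against wild type air lungs, 8 of 17 ATP synthase genes were lower and none higher, led by the inhibitor Atpif1 (-0.20, limma adjusted p = 0.0004875). Of 17 complex IV assembly genes 7 were lower and 1 higher, led by Pet100 (-0.27, adjusted p = 1.565e-05). Nnt, the mitochondrial transhydrogenase, changed by -0.46 (adjusted p = 1.225e-05), and the part of genetic background was not tested for this gene either. These counts stand beside the 14.4% of all genes called lower.

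After 3 d of hyperoxia, complex IV assembly genes were called higher in both genotypes, 4 of 17 in wild type (1 lower) and 8 of 17 in knockout (none lower), to be read beside the shares of all genes called higher given above. The copper chaperone Cox17 rose by 0.68 in wild type and 0.72 in knockout, and the copper-binding factor Sco2 by 0.52 and 1.03. Nrf1, which codes nuclear respiratory factor 1, rose by 0.74 (limma adjusted p = 1.083e-07) and by 0.50, and the coactivator Pprc1 by 0.72 and 0.66. Gabpa, which codes the DNA-binding part of nuclear respiratory factor 2, fell by 0.44 and by 0.61. Nrf1, Pprc1 and Gabpa are single picks, and the count called among other regulators is not given here. Nnt fell by 0.83 and by 0.99. The proliferation list of 12 genes had 8 lower in wild type and 12 lower in knockout, beside 12.5% and 14.7% of all genes called lower.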
